A study of Homo sapiens with 3 samples.

Results

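The genes described here are 8 genes of cholesterol synthesis and of the feedback that controls it: HMGCS1, IDI1 and SQLE, which encode enzymes of the pathway, INSIG1, INSIG2 and SCAP, which encode the sterol-sensing membrane proteins, and SREBF1 and SREBF2, which encode the transcription factors. They were chosen by symbol from the probe sets annotated to 1 gene, and all 8 were found among 18239 genes on the array, with 22 probe sets. Messenger RNA was measured in A498, a line from a human kidney carcinoma, after 4 h in serum-free medium with gentamicin. The 3 cultures received 0.08% DMSO (the control), E. coli 83972, a bladder strain that colonizes without symptoms, or 60 µM DRB, a nucleoside analogue that inhibits CDK9 and so blocks transcription elongation by RNA polymerase II. DMSO is stated for the control only, and the bacterial dose is left out because the labels contradict each other on it. Each group was 1 array of the experiment numbered 2, so each difference compares single arrays, no test between groups could be made and no p-value is given.

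Cells make cholesterol from acetyl-CoA through mevalonate, isoprenoid units and squalene. The pathway is set by SREBP transcription factors, which are made as membrane precursors held in the endoplasmic reticulum. SCAP carries them to the Golgi for cleavage when sterols are low, while INSIG proteins hold SCAP back when sterols are high. INSIG1 is itself a well known target of SREBP, and its protein is degraded quickly when sterols are low, so the pair closes a feedback loop.

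The values are log2 probe-set values, and a difference of 1 is 2-fold. Each gene is represented by the probe set of highest mean level. A gene was kept if that set reached 4.88, the median of the whole table, on any array, and 11653 genes did so, the 8 among them. Of the 22 probe sets 21 passed the same limit, and the exception was a dim one of SREBF1. Values are not compared between genes, since probes differ in brightness. As a measure of technical error, the disagreement of the 2 brightest kept probe sets of 6317 genes gave a standard deviation of 0.12 for a difference between E. coli 83972 and control (0.18 without robust weighting). It was 0.15 between DRB and control (0.32 without) and 0.17 between both treated arrays (0.35 without). It holds no variation between cultures.

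All 8 kidney epithelial and carcinoma line markers examined passed the filter, among them KRT18 (11.63 on the control array) and VIM (12.85). LHX1, a kidney developmental factor, read 8.74, 7.33 and 7.09 on the control, E. coli 83972 and DRB arrays. Of the markers of other cells, 1 of 5 leukocyte, 2 of 5 endothelial and 1 of 6 fibroblast genes passed. The summed log2 levels of these marker lists were 19.3 to 20.1, 23.4 to 23.9 and 23.1 to 24.0 across the arrays. The leukocyte-defining gene PTPRC was below the filter level on all arrays, at 3.41 to 3.52.

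Upstream sequence is shown for the 3 genes with a probe set at least 2-fold lower with DRB and, for comparison, for SREBF2, whose level with DRB differed little. Sequence came from RefSeq on GRCh38.p14 for 7 of the 8 genes, and SQLE was not searched. The 250 bases before the most upstream listed start were searched on both strands. Capitals mark TCACNCCAC, a form of the sterol regulatory element that SREBP binds, CACGTG, a palindromic E-box that the SREBP family can also bind, and CCAAT, the NF-Y site, which often lies beside SREBP sites; ATTGG is CCAAT on the other strand. None of these marked matches overlap.
HMGCS1 (chr5:43313413-43313662, minus strand): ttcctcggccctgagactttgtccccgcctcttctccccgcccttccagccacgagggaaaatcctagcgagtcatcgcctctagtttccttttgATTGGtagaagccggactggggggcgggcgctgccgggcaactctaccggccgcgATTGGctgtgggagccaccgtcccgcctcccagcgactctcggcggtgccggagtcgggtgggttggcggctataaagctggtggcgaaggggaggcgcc
INSIG1 (chr7:155297628-155297877, plus strand): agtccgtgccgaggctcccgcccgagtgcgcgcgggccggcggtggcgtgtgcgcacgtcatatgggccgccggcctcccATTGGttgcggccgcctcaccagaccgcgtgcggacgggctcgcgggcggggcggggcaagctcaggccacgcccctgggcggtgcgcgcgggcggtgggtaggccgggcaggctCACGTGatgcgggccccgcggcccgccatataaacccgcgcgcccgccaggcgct
INSIG2 (chr2:118088221-118088470, plus strand): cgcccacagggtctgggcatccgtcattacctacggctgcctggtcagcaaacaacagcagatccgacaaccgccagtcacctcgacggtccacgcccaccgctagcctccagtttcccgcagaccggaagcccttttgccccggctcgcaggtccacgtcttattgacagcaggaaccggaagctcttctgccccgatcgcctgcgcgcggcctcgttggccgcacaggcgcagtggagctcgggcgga
SREBF2 (chr22:41832855-41833104, plus strand): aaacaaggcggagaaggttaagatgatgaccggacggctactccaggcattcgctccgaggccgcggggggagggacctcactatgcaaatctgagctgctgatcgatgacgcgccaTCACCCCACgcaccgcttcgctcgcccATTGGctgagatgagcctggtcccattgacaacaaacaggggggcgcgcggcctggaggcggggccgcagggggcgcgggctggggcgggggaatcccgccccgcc
The sterol element was found in 1 of the 7 windows, that of SREBF2, 133 bases before the start, and in 0.868% of the first-start windows of all 27305 genes listed. CACGTG was found in 2 of the 7, INSIG1 (55 bases before the start) and SCAP (58 bases), against 6.46% of all. CCAAT was found in 3 of the 7, with 2 matches for HMGCS1, at 155 and 100 bases, 1 for INSIG1, at 170, and 1 for SREBF2, at 106, against 33.0% of all. The GC box GGGCGG, bound by SP1 and not marked, was found in 7 of the 7 and in 42.2% of all, with 5 matches for INSIG1 and 1 for INSIG2. The INSIG2 window held none of the marked motifs. These matches describe letters in a short window and not binding.

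The E. coli 83972 array was set against control to see how host transcripts stood after 4 h with the bacterium. None of the 8 genes passed 2-fold: 0 were higher, beside 1.91% of all genes kept, and 0 were lower, beside 0.652%. The genes spread around 0, with 4 above and 4 below and a median of −0.06, against −0.03 for all genes kept. Both INSIG genes had the highest values among the 8 and IDI1 the lowest. Centring the arrays on hybridization spike-ins, RNAs added before hybridization, shifts every difference of this comparison by −0.34, so positive values smaller than that lie below 0 on that scale. Some of these spike-ins have E. coli sequences, and all 9 probe sets read higher on the E. coli 83972 array than on control, by 0.10 to 0.37. The part of bacterial RNA in this shift was not tested.

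The DRB array was set against control to see which transcripts differed once elongation was blocked. HMGCS1 and INSIG1 were at least 2-fold lower, 2 of 8 genes beside 10.2% of all genes kept, and 0 were at least 2-fold higher, beside 0.129%. The 3 enzyme genes and both INSIG genes lay below control, while SCAP, SREBF1 and SREBF2 lay slightly above it in the deposited values. Centring on poly-A spike-ins, RNAs added before labelling, shifts every DRB difference by −0.84, and each positive DRB difference from control given here lies below 0 on that scale. The median was −0.57 for the 8 genes and 0.05 for all genes kept. Among kept probe sets 4 of 21 were at least 2-fold lower, 1 of HMGCS1, 1 of INSIG1 and 2 of INSIG2, beside 8.44% of all kept probe sets.

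**Figure D1:**
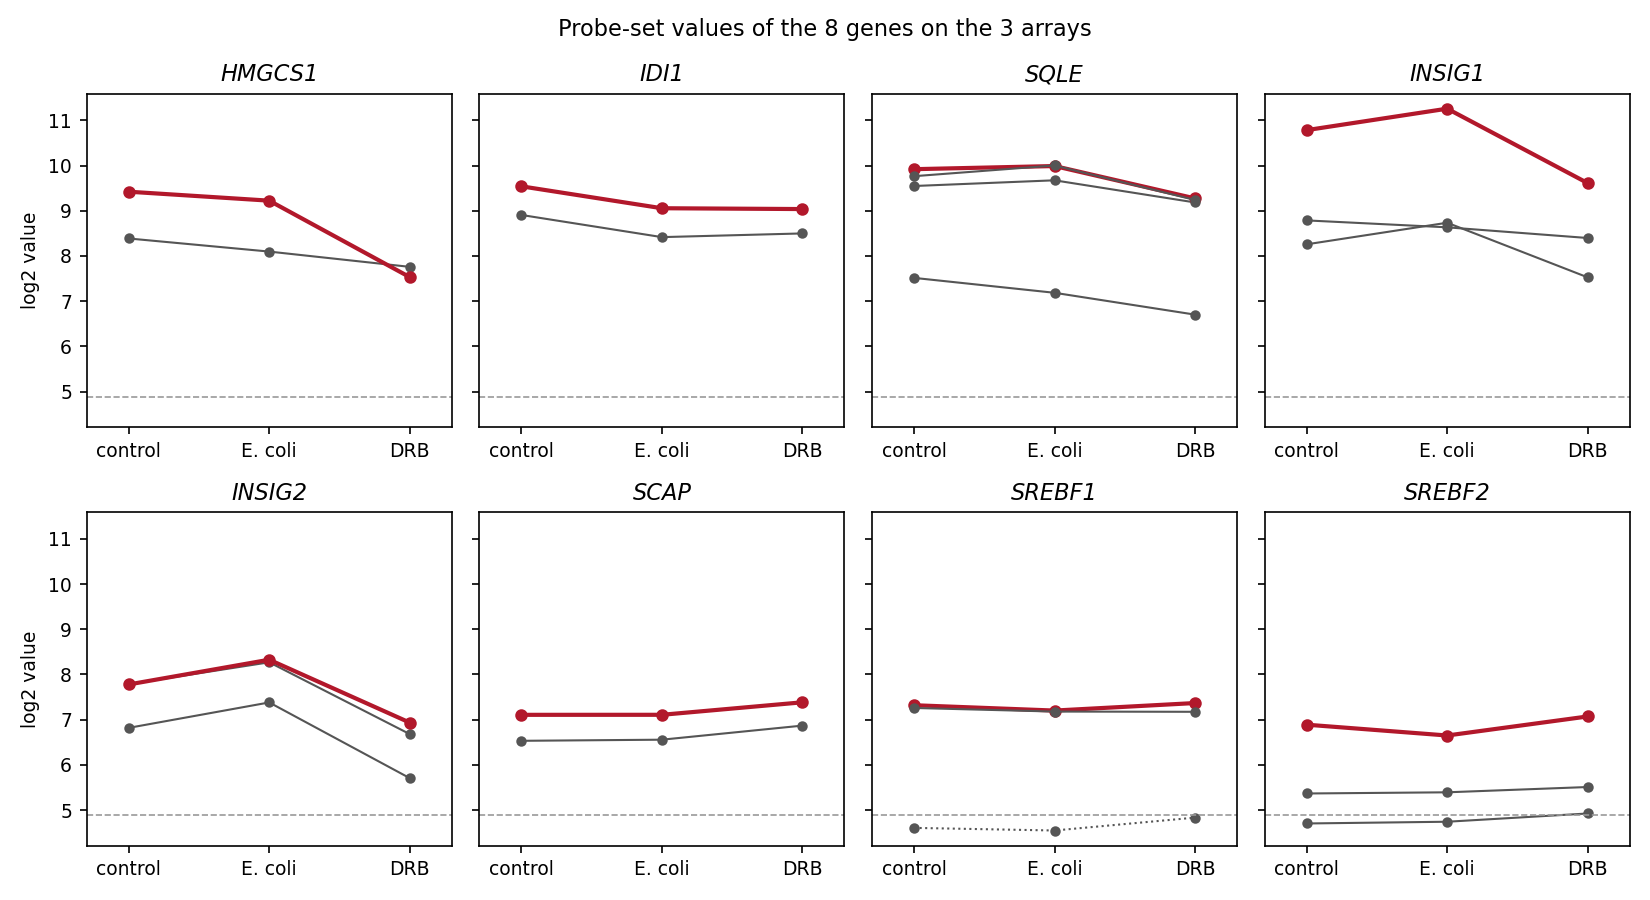
Log2 values (vertical axis) of every probe set of the 8 genes on the control, E. coli 83972 and DRB arrays (horizontal axis), 1 array each. Red lines are the probe sets that represent the gene, grey lines the others, the dotted line 1 under the filter, and the dashed horizontal line the filter level of 4.88. The red lines of INSIG1 and INSIG2 peak on the E. coli 83972 array and are lowest on the DRB array, 1 grey line of INSIG1 is highest on the control array, and SCAP, SREBF1 and SREBF2 stay nearly level.

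HMGCS1 encodes the cytosolic HMG-CoA synthase, which makes the substrate of the rate-limiting reductase. Its brighter probe set read 9.42 on the control array, 9.22 with E. coli 83972 and 7.53 with DRB. The DRB array was the low one, 3.70-fold below control (−1.89), and the E. coli 83972 array differed from control by −0.20. The other probe set of HMGCS1 read 8.39, 8.10 and 7.76, with differences of −0.29 for E. coli 83972 and −0.63 for DRB. Both therefore lay below control on both treated arrays, but the size with DRB differed by more than the technical error, and their mean was −1.26 ± 0.89 (SD over 2 probe sets). The brighter one carries the suffix _s_at, which the array maker gives to sets whose probes can match several transcripts. The representative sets of INSIG1, SQLE and IDI1 carry the same suffix. Those of INSIG2 and SCAP carry _x_at, given to sets with probes that can match unrelated transcripts.

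IDI1 encodes isopentenyl diphosphate isomerase, which supplies the starter unit of isoprenoid chains. Its representative probe set read 9.54 with control, 9.05 with E. coli 83972 and 9.04 with DRB. Both treated arrays were lower than control by nearly the same amount, −0.48 and −0.50, and differed from each other by 0.02. The other probe set gave −0.49 and −0.41, so the mean with E. coli 83972 was −0.49 ± 0.0038 (SD over 2 probe sets). That SD is far below the technical error of 0.12 and is no measure of the precision of the difference. Both differences are taken from the same control array. Of all genes kept 5.47% lay lower than IDI1 in the comparison with E. coli 83972, and 20.3% in that with DRB.

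SQLE encodes squalene epoxidase, which adds oxygen to squalene and is a control point late in the pathway. The 4 probe sets read 7.51 to 9.92 on the control array, 7.18 to 10.00 with E. coli 83972 and 6.70 to 9.27 with DRB. The representative probe set, at 9.92, 9.99 and 9.27, was 1.57-fold lower with DRB (−0.65) and differed by 0.07 with E. coli 83972. With DRB all 4 were lower, with differences of −0.81 to −0.36 and a mean of −0.59 ± 0.19 (SD over 4 probe sets). With E. coli 83972 they went both ways, 3 above 0 and 1 below, from −0.33 to 0.24, so no direction is given for it.

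INSIG1 encodes the more strongly sterol-regulated of the INSIG proteins. Its representative probe set read 10.78 on the control array, 11.26 with E. coli 83972 and 9.61 with DRB. The arrays thus stood on opposite sides of control, 1.39-fold higher with E. coli 83972 (0.47) and 2.25-fold lower with DRB (−1.17). A further probe set, at 8.26, 8.73 and 7.53, gave 0.48 and −0.73. The third, at 8.79, 8.63 and 8.40, gave −0.15 and −0.39, so it was lower on both arrays. Over the 3 probe sets the mean was 0.27 ± 0.36 with E. coli 83972, a spread larger than the mean, and −0.76 ± 0.39 with DRB.

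INSIG2 encodes the related protein, whose expression is less tied to SREBP. Its 3 probe sets agreed more closely than those of INSIG1. The representative one read 7.78 with control, 8.33 with E. coli 83972 and 6.94 with DRB, and was 1.46-fold higher with the bacterium (0.55) and 1.79-fold lower with DRB (−0.84). The others, at 7.78, 8.27 and 6.68 and at 6.82, 7.38 and 5.71, gave differences of 0.48 and 0.56 for the bacterium, and of −1.10 and −1.11 for DRB. All 3 were above control on the first array and below it on the second, with means of 0.53 ± 0.04 and −1.02 ± 0.15 (SD over 3 probe sets). The 2 brightest sets had nearly the same mean level. The representative one, with the suffix _x_at, did not pass 2-fold, while both others, with the suffix _a_at, did. Whether INSIG2 counts as 2-fold lower thus rests on the choice of probe set. With the mean over probe sets the 2 genes at least 2-fold lower were HMGCS1 and INSIG2, and INSIG1 was not.

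**Figure D2:**
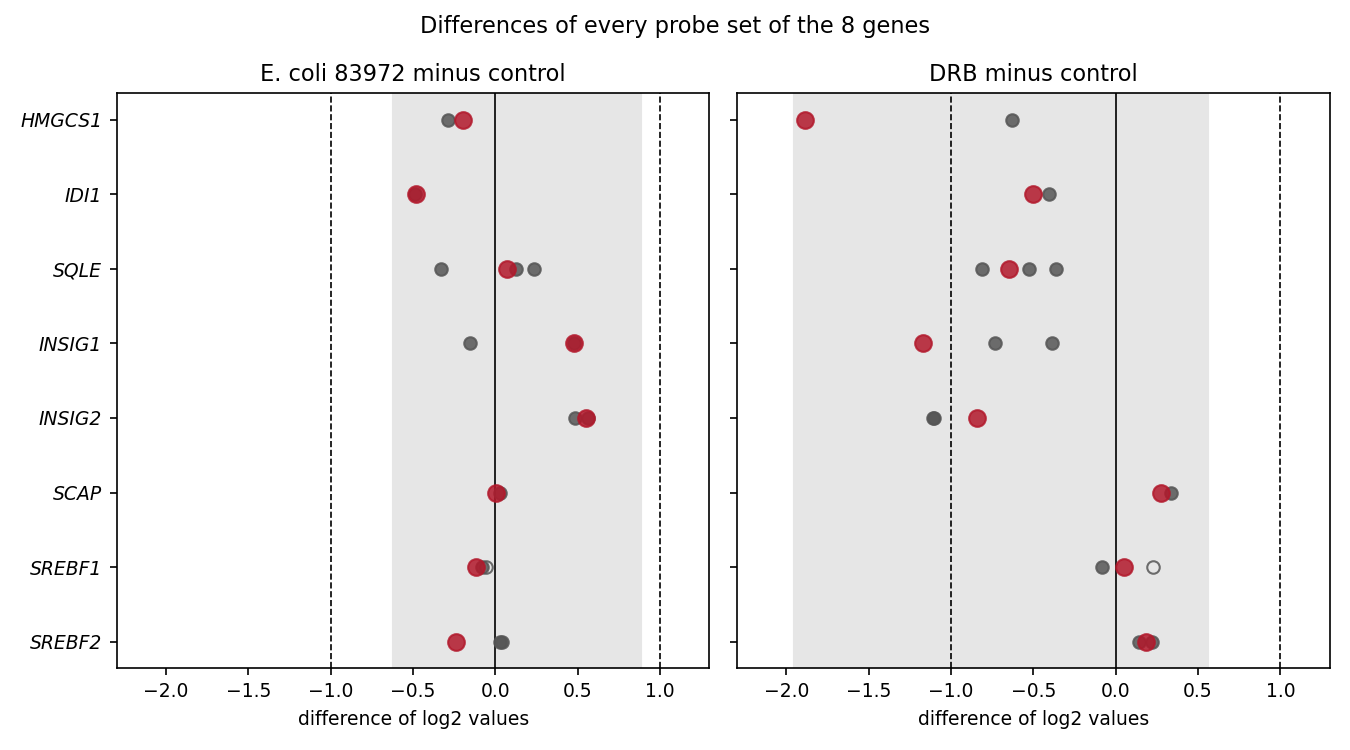
Difference of log2 values (horizontal axis) of each probe set from control for the E. coli 83972 array and the DRB array, by gene (vertical axis). Red points represent the gene, grey points are other probe sets and the open point is under the filter; dashed lines mark 2-fold, and the grey band holds the central part of all genes kept, from the 2.5th to the 97.5th percentile (−0.62 to 0.88 and −1.95 to 0.56). All points lie inside the band, and the points of HMGCS1 and INSIG1 scatter more than those of IDI1, SCAP and SREBF2 with DRB.

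Relative to all genes kept, the INSIG genes stood high with E. coli 83972 without being 2-fold different. Of all genes kept 94.2% lay lower than INSIG2 and 93.0% lower than INSIG1 in that comparison. In the comparison of DRB with control 12.7% lay lower than INSIG2, 7.91% lower than INSIG1 and 2.77% lower than HMGCS1. All 8 genes lay between the 2.5th and 97.5th percentiles of all genes kept in both comparisons. Both comparisons share the control array.

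The sensor and transcription factor genes differed little. SCAP, the escort protein of SREBP, read 7.11 on the control array, 7.11 with E. coli 83972 and 7.38 with DRB in its brighter probe set, and 6.53, 6.56 and 6.87 in the other. The DRB array was thus higher by 0.28 and 0.34 in the deposited values, but at −0.56 for the brighter set with centring on poly-A spike-ins. With E. coli 83972 the differences were 0.00074 and 0.02.

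SREBF1, which encodes the SREBP-1 proteins known mainly for fatty acid genes, read 7.32, 7.20 and 7.37 on the control, E. coli 83972 and DRB arrays. Its other kept probe set read 7.26, 7.18 and 7.17. The differences with DRB, 0.05 and −0.08, had no common sign, and those with E. coli 83972, −0.12 and −0.08, were no larger than the technical error. The probe set under the filter read 4.60, 4.55 and 4.83.

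SREBF2, which encodes SREBP-2, the factor known mainly for cholesterol genes, read 6.89, 6.65 and 7.07 in its representative probe set. Its other probe sets read 5.37, 5.39 and 5.51 and 4.70, 4.74 and 4.92. The dimmer of these reached the filter level on the DRB array only, so its being kept favoured a positive DRB difference. The range and mean given next include that set. With DRB all 3 were slightly above control, at 0.14 to 0.22 (mean 0.18 ± 0.04, SD over 3 probe sets), but −0.66 for the representative one with centring on poly-A spike-ins and −0.05 on hybridization spike-ins. With E. coli 83972 the representative set differed by −0.24, and the others by 0.03 and 0.04.

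**Figure D3:**
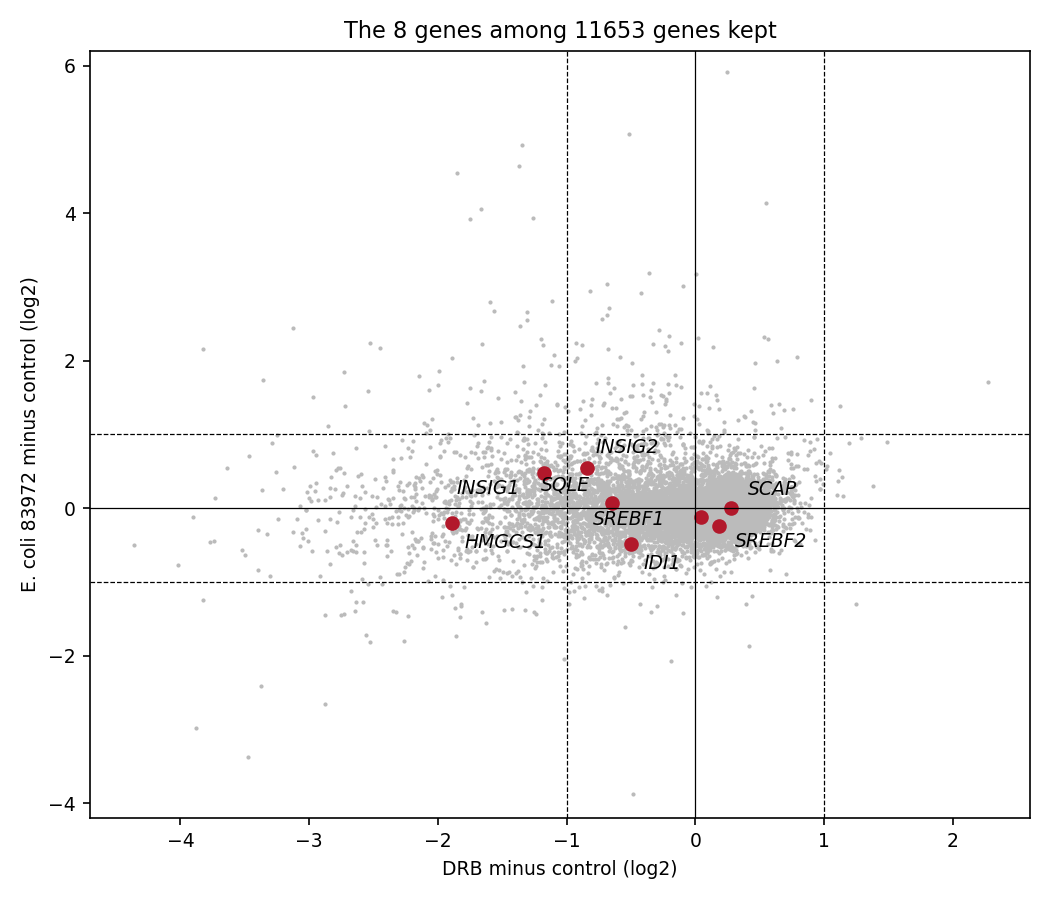
Each grey point is 1 of 11653 genes kept, with the DRB minus control difference on the horizontal axis and the E. coli 83972 minus control difference on the vertical axis, both in log2; dashed lines mark 2-fold and red points are the 8 genes. Both differences share the control array. HMGCS1, at −1.89 and −0.20, lies farthest left of the 8, and INSIG1 and INSIG2 lie at the upper left.

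Set directly against each other, the E. coli 83972 array was at least 2-fold above the DRB array for 3 of the 8 genes, beside 12.3% of all genes kept, and at least 2-fold below it for 0, beside 0.386%. They were HMGCS1 (1.69, 3.23-fold), INSIG1 (1.65, 3.13-fold) and INSIG2 (1.39, 2.62-fold). All 3 probe sets of INSIG2 passed 2-fold, at 1.39 to 1.67, and 2 of 3 of INSIG1, at 0.24 to 1.65. The second probe set of HMGCS1 differed by 0.34. Of the 21 kept probe sets 6 were at least 2-fold higher on the E. coli 83972 array, beside 10.9% of all kept probe sets. SQLE was higher on the E. coli 83972 array by 0.72 and IDI1 by 0.02, while SREBF2 (−0.42), SCAP (−0.28) and SREBF1 (−0.17) were lower in the deposited values and higher with centring on poly-A spike-ins, at 0.44, 0.59 and 0.70.

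In the comparison of E. coli 83972 with control the order ran from IDI1 through SREBF2, HMGCS1, SREBF1, SCAP and SQLE to INSIG1 and INSIG2. Only the gaps between IDI1 and SREBF2 (0.25) and between SQLE and INSIG1 (0.41) were wider than 0.18. That is the technical error of a single gene's difference in that comparison, without robust weighting. A gap between genes holds the errors of both, so its error is larger. The gap of 0.25 therefore does not settle the order of IDI1 and SREBF2. The order of the DRB differences placed HMGCS1 lowest, then INSIG1, INSIG2, SQLE, IDI1, SREBF1, SREBF2 and SCAP. INSIG2 and SQLE, SQLE and IDI1, SREBF1 and SREBF2, and SREBF2 and SCAP lay within 0.32 of each other, the technical error without robust weighting. INSIG1 and INSIG2 differed by slightly more in their representative sets, which does not settle their order either. They changed places with the mean over probe sets (−0.76 and −1.02). HMGCS1 lay 0.72 below INSIG1, a gap that rests on its brighter probe set. The gap between the 5 genes below control and the other 3, from IDI1 to SREBF1, was 0.55. It was wider than 0.32, but the error of a gap is larger than that of a single gene. With the mean over probe sets IDI1 stood at −0.46 and SREBF1 at −0.02, so the split is not firmly resolved.

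The genes with the most similar pair of differences from control, over the 3 arrays, were found by Euclidean distance. For HMGCS1 they were ZNF180 (−0.24 with E. coli 83972 and −1.89 with DRB, distance 0.04), ZC3HAV1L (−0.16 and −1.88, distance 0.04) and MTNAP1 (−0.22 and −1.85, distance 0.05). For INSIG1 they were FOXN2 (0.49 and −1.16, distance 0.02), ZSCAN29 (0.51 and −1.15, distance 0.04) and WDR75 (0.51 and −1.19, distance 0.04). A pattern over 3 arrays is only 2 differences, and nothing is drawn from these matches.

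The other measured enzymes of the pathway stood nearer to control with DRB than the brighter probe set of HMGCS1 did (−1.89). The other HMGCS1 set gave −0.63, so the contrast rests on the brighter one. Of 6 other genes of the mevalonate and isoprenoid steps 0 were at least 2-fold different in either comparison with control, with medians of −0.18 for E. coli 83972 and 0.03 for DRB. GGPS1, which makes geranylgeranyl diphosphate, had the lowest DRB value (−0.68), but its 3 kept probe sets ranged from −0.68 to 0.02. FDPS, which makes farnesyl diphosphate, differed by 0.15 with DRB and PMVK, phosphomevalonate kinase, by 0.09. MVD, the decarboxylase that follows it, was above control on both arrays, at 0.31 and 0.33.

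Of 10 other genes of the sterol steps 0 were at least 2-fold different in either comparison with control. With E. coli 83972 9 of the 10 lay below control, with a median of −0.19 (8 of the 10 with centring on poly-A spike-ins), where 45.2% of all genes kept lay above 0. The lowest were LBR, a sterol reductase of the nuclear envelope (−0.45), HSD17B7 (−0.42), NSDHL, which helps to remove methyl groups from sterol precursors (−0.28), and EBP, the sterol isomerase (−0.20). The 2 probe sets of LBR disagreed in sign with E. coli 83972, at −0.45 and 0.09. With DRB the median was 0.03 and 7 of the 10 lay above control. LBR (−0.85) and HSD17B7 (−0.49) were the lowest, but the 2 probe sets of LBR gave −0.85 and −0.11. CYP51A1, MSMO1 and SC5D, which act on lanosterol and its products, differed by 0.05, 0.01 and 0.0036 with DRB, against −0.65 for SQLE, which acts before them. The 4 kept probe sets of SC5D ranged from −0.36 to 0.07.

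**Figure D4:**
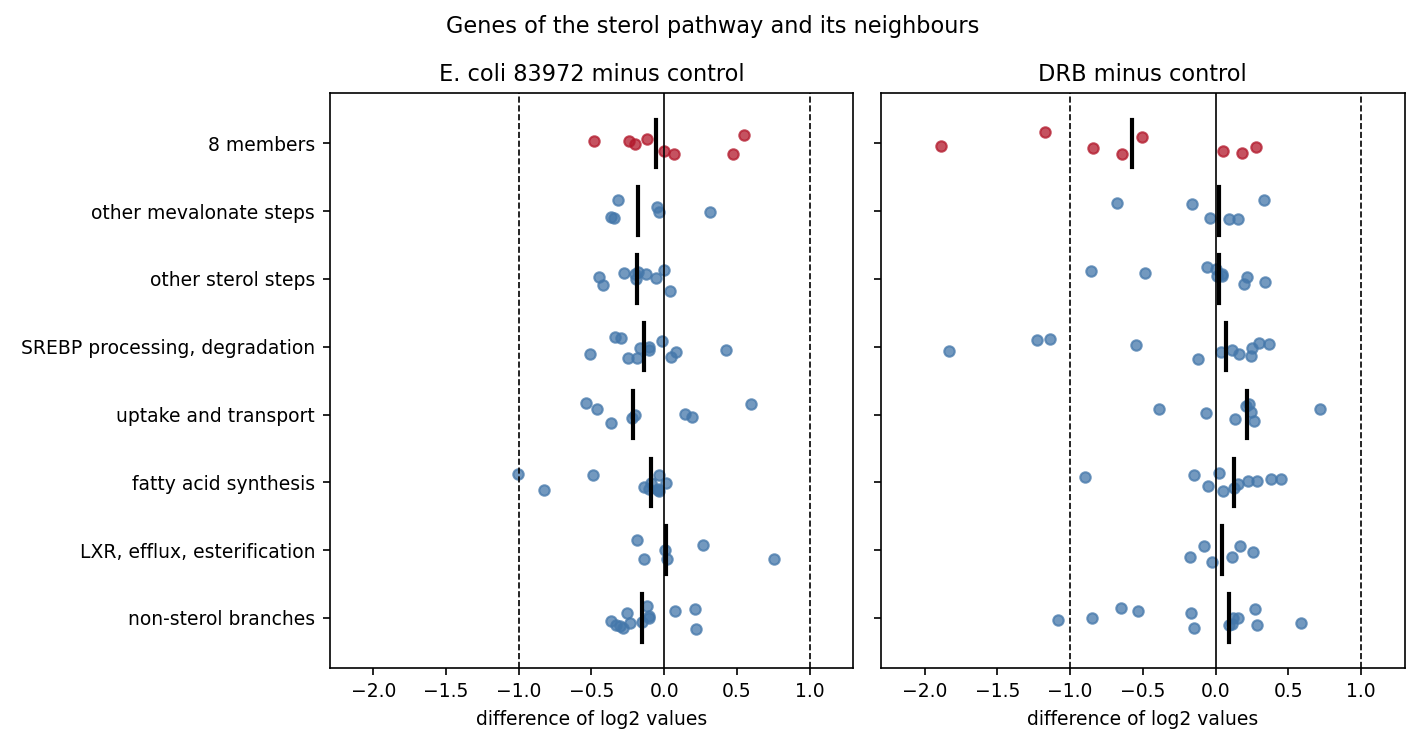
Difference of log2 values from control (horizontal axis) for each kept gene of the 8 members (red) and of 7 related lists (blue), with the E. coli 83972 array on the left and the DRB array on the right; black bars are list medians and dashed lines mark 2-fold. With DRB the median of the members is −0.57, and those of the other lists lie between 0.03 and 0.22.

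Of 12 kept genes that process SREBP or degrade its partners 3 were at least 2-fold lower with DRB, beside 10.2% of all genes kept, and 0 were higher, beside 0.129%, with a median of 0.07. RNF139, a membrane ubiquitin ligase also called TRC8, read 8.42, 8.25 and 6.59 on the control, E. coli 83972 and DRB arrays, a difference with DRB of −1.83 from its 1 kept probe set. RNF145, a ligase of the same family, differed by −1.23 with DRB, but its 7 kept probe sets ranged from −1.23 to 0.21 with a mean of −0.31. FBXW7, which marks nuclear SREBP for degradation, differed by −1.14, with 3 kept probe sets from −1.15 to −0.68. The proteases that cleave SREBP stayed nearer to control, with MBTPS1 at 0.37 and MBTPS2 at 0.03 with DRB. With E. coli 83972 0 of the 12 were at least 2-fold different, from FBXW7 at −0.51 to PAQR3 at 0.42, and the median was −0.14.

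Of 8 kept genes of cholesterol uptake and transport 0 were at least 2-fold different in either comparison with control. NPC1, which exports cholesterol from lysosomes, was higher by 0.60 with E. coli 83972 and 0.27 with DRB. MYLIP, a ubiquitin ligase of lipoprotein receptors, differed by −0.54 and −0.39, and its 2 kept probe sets gave −0.39 and −1.89 with DRB. SCARB1, the high-density lipoprotein receptor, differed by 0.72 with DRB, with probe sets at 0.07 and 0.72. The medians were −0.21 for E. coli 83972 and 0.22 for DRB.

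Among 11 fatty acid synthesis genes known as SREBP-1 targets, ELOVL6, a fatty acid elongase, was 2.00-fold lower with E. coli 83972 (−1.002). It was the 1 gene lower, beside 0.652% of all genes kept, and 0 were 2-fold higher, beside 1.91%. ELOVL6 read 8.52 on the control array, 7.51 with E. coli 83972 and 8.64 with DRB, so the E. coli 83972 array alone was low, and its 3 kept probe sets gave −1.15 to −0.98. It sits at the threshold, and 0 of the 11 were 2-fold lower with centring on poly-A spike-ins and 2 with centring on hybridization spike-ins. Of the 11653 genes kept, 69 and 247 were 2-fold lower on these scales. GPAM, which starts glycerolipid synthesis, differed by −0.83 with E. coli 83972, but its 2 kept probe sets gave −0.83 and −1.57, a mean of −1.20 that passes 2-fold, and −0.15 and −1.17 with DRB. LPIN1, a phosphatidate phosphatase, differed by −0.49 with E. coli 83972. There 10 of the 11 genes lay below control, where 45.2% of all genes kept lay above 0. Their median of −0.09 was smaller in size than the technical error of 0.12. With DRB 0 were at least 2-fold different and the median was 0.13, with LPIN1 the lowest at −0.89 and FADS1 the highest at 0.45. FASN, SCD and ACACA, the core enzymes, differed by 0.15, 0.05 and 0.22 with DRB. The 4 kept probe sets of SCD ranged from 0.05 to 0.75 with DRB, with a mean of 0.44.

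The deposited values force the arrays to nearly one distribution, so a fall shared by most transcripts is reduced in them. Centring on the 12 poly-A spike-in probe sets moved the median of all genes kept from 0.05 to −0.79 for DRB against control, and the 12 sets themselves differed by 0.51 to 0.96 between these arrays. On that scale 5 of the 8 genes were at least 2-fold lower with DRB, HMGCS1, INSIG1, INSIG2, SQLE and IDI1, beside 3806 of the 11653 genes kept, and SCAP, SREBF1 and SREBF2 lay below control. Centring on the 9 hybridization spike-in probe sets moved the median to −0.18 for DRB and to −0.36 for E. coli 83972. The representative sets of INSIG1 and INSIG2 lay above control with E. coli 83972 on that scale, at 0.14 and 0.21. The value of INSIG1 was within 0.18, the technical error without robust weighting. Its mean over probe sets, 0.27 as deposited, is smaller than the shift of −0.34 and so lies below 0 on that scale. The part of these shifts in the differences of the 8 genes was not tested.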

How the data were processed

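The authors deposited 1 table of log2 probe-set values for 3 arrays, made with RMA and Partek, per the submitters' processing notes. Not given in the sources used here were their versions and how many arrays entered the normalization. RMA equalizes the distributions of arrays, which reduces any change that most transcripts share. Of 49386 probe sets 45259 had 1 gene symbol, updated through Entrez identifiers with RefSeq (GRCh38.p14), and 1327 had several and named none. Differences of log2 values between arrays were computed with Python 3.11.15, pandas 2.3.3 and numpy 2.4.6, with no pseudocount. The calculation was tested on simulated data. With 1 array per group the number of arrays limits the precision and no test was made. The members and lists were chosen with earlier results of these data known. Named genes are the 8 members in every probe set, up to 4 genes with the largest differences per list and comparison, and the 3 nearest patterns per member whose representative probe set was at least 2-fold different; KRT18, VIM, PTPRC, CYP51A1, MSMO1, SC5D, MBTPS1, MBTPS2, FASN, SCD, ACACA and CH25H were named for their role after their values were seen. List genes without a named probe set were not analysed here. Alternatives were the probe set rule, the filter, suffixes, centring, quantile normalization and the fold.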

Additional observations from a re-analysis of the deposited data

How the results depend on the processing

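No paired analysis was possible because each group has 1 array. The count of members at least 2-fold lower with DRB, 2 as deposited, was 5 with centring on poly-A spike-ins, 4 at 1.5-fold, 1 at 3-fold and 0 with plain-suffix probe sets, where SQLE alone is measured. Of the 11653 genes kept, 2106 were lower with DRB at 1.5-fold and 503 at 3-fold. The count at least 2-fold higher with E. coli 83972 than with DRB, 3 as deposited, was 0 with plain-suffix probe sets for the same reason and otherwise stayed within 1.5 times. It was 4 with centring on poly-A spike-ins, 4 at 1.5-fold and 2 at 3-fold. Of the 11653 genes kept, 1432 were higher as deposited, and 3930, 2254 and 682 in these settings. The counts of 0 stayed at 0 in every setting run. No member that was 2-fold different changed sign under the settings run. Smaller differences changed sign in 6 cases of 24 with centring on poly-A spike-ins, 5 of 24 on hybridization spike-ins, 1 of 24 with the mean over probe sets and 1 of 3 with plain-suffix probe sets. Removing the filter, or raising it by 1 log2 unit, could not change these 24 differences, because the probe set is chosen before the filter. All 8 genes stayed kept under both. Quantile normalization left 22 of the 24 within the technical error. Over all genes, the share of 2-fold calls that were higher with E. coli 83972 than control was 74.5% as deposited (222 higher, 76 lower) and 34.3% with centring on hybridization spike-ins (129 and 247). The count of genes at least 2-fold lower with DRB was 1185 as deposited, 3806 with centring on poly-A spike-ins and 698 of 9861 with the mean over probe sets.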

Other observations

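Of 13 genes of the non-sterol branches of the mevalonate pathway 1 was at least 2-fold lower with DRB, beside 10.2% of all genes kept. It was NUS1, a subunit of the enzyme that makes dolichol chains, at −1.09, but its 4 kept probe sets ranged from −1.09 to 0.01. RABGGTB, the catalytic subunit that attaches geranylgeranyl groups to Rab proteins, differed by −0.85 with DRB and 0.21 with E. coli 83972, with 2 kept probe sets at −0.85 and −0.81 with DRB. FNTA, the shared subunit of the protein prenyltransferases, differed by −0.65, and PDSS2, which makes the ubiquinone side chain, by 0.59. With E. coli 83972 the median of the list was −0.16, and 0 of its 13 genes passed 2-fold.

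Of 6 kept genes of sterol efflux, esterification and oxysterol synthesis 0 were at least 2-fold different from control. ABCA1, the cholesterol exporter, read 10.15, 10.90 and 10.07 on the control, E. coli 83972 and DRB arrays, so it was higher by 0.75 with E. coli 83972, with probe sets at 0.65 and 0.75. SOAT1, which esterifies cholesterol, differed by −0.14 and −0.02. CH25H, which makes an oxysterol, was under the filter on all arrays, at 3.55 to 3.78.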
